A study of Homo sapiens with 8 samples.

Results

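The genes described here make the machinery that copies DNA in S phase and the deoxynucleotides it consumes. They were chosen by name and function, from origin licensing to the chromatin rebuilt behind the fork, and 49 genes were listed. Of these, 48 had a probe whose RefSeq accession matched and were tested, out of 15456 genes tested in all. POLA2, the second subunit of DNA polymerase alpha, had no such probe and has no value. All samples were OAW42-R cells, a chemoresistant human ovarian carcinoma line, so every culture was of this 1 line, and no drug treatment is named for them. In sictrl, cells were transfected with a non-targeting Lincode siRNA pool. In siUCA1, they received Lincode siRNAs number 2 and number 4 against UCA1, a long noncoding RNA. Both were given at 20 nM with INTERFERin, the labels place RNA extraction at 24 h, and the study's methods give a longer time after transfection. Each condition had 4 replicates named A1, M2, A2 and A3, from independent experiments according to the methods, and each was hybridized to a one-color Agilent array. The comparison of siUCA1 with sictrl asks how these genes responded to the loss of UCA1.

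Replication is prepared in G1, when the origin recognition complex, CDC6 and CDT1 load the ring of MCM proteins onto DNA, and geminin restrains CDT1 afterwards. In S phase, CDC7 with DBF4, MCM10, CDC45 and GINS turn the loaded rings into active helicases, and polymerases, the PCNA clamp and its loader follow. Most of these genes are transcribed together at the G1/S boundary by E2F factors, which RB1 holds back and which E2F7 and E2F8 repress later in the cycle.

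UCA1 itself was measured first. Its log2 level, here always relative to the 75th percentile of the array, was 8.35, 8.37, 8.60 and 7.48 on the sictrl arrays A1, M2, A2 and A3 and 3.68, 2.59, 3.02 and 3.34 on the siUCA1 arrays in the same order. It was 33.0-fold lower in siUCA1 (limma, adjusted p = 1.22e-04). All arrays lay on 1 slide, with 20858 to 24039 spots well above background and the 75th percentile of the intensity between 106.5 and 134.5. The sictrl A3 and siUCA1 A1 arrays, both in column 2 of the slide, stood apart. The scanner software's root mean square for its surface fit was 0.321 and 0.287 on them, against 0.0737 to 0.0943 on the others. How much of this remained in the intensities used was not tested. Several results are therefore also given without these 2 arrays. Of 9 markers of ovarian carcinoma and epithelium, CDH1, EPCAM, KRT7, KRT8, KRT18 and PAX8 were well above background on all 8 arrays, while MSLN, MUC16 and WT1 were so on none. Of 6 fibroblast markers, 0 were so on all arrays. In bulk RNA, fewer cells in S phase and less RNA per cell cannot be told apart.

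The promoters of these genes were compared first, since they show what the genes share. RefSeq windows from 250 bases before to 50 bases after the transcript start (GRCh38.p14) were found for 44 of the 49 genes, 61 windows in all. MCM4, MCM5, GINS4, POLD3 and E2F8 had no entry. The E2F consensus was searched as TTTCCCGC, TTTCGCGC, TTTGCCGC or TTTGGCGC on both strands. It was found in 25 of the 61 windows (41.0%), against 3.31% of all 35116 windows of this length. These windows belonged to 24 genes, and in 18 of them the nearest match lay within 50 bases of the start. The CCAAT box, searched as CCAAT on both strands, was found in 32 of the 61 windows (52.5%) against 34.6% of all windows. The cell-cycle homology region, searched as TTTGAA or TTCGAA, was found in 5 of the 61 (8.2%) against 16.4%. Of 34 E2F matches, 1 overlapped a CCAAT match. Among genes with a window, the E2F consensus was found in 0 of the 5 that passed the test as lower, in 1 of the 3 that passed as higher (CDT1) and in 22 of the 35 others tested. CCAAT was found in all 5 lower genes, in 1 of the 3 higher genes (E2F7) and in 20 of the 35 others. Over all genes with a window, the E2F consensus was found in 3.99% and CCAAT in 39.7%. Over the 44 listed genes with a window, the shares were 54.5% and 59.1%. A match is a stretch of letters and not a bound site, and a stretch 1 letter off the searched letters was not counted.

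**Figure D1:**
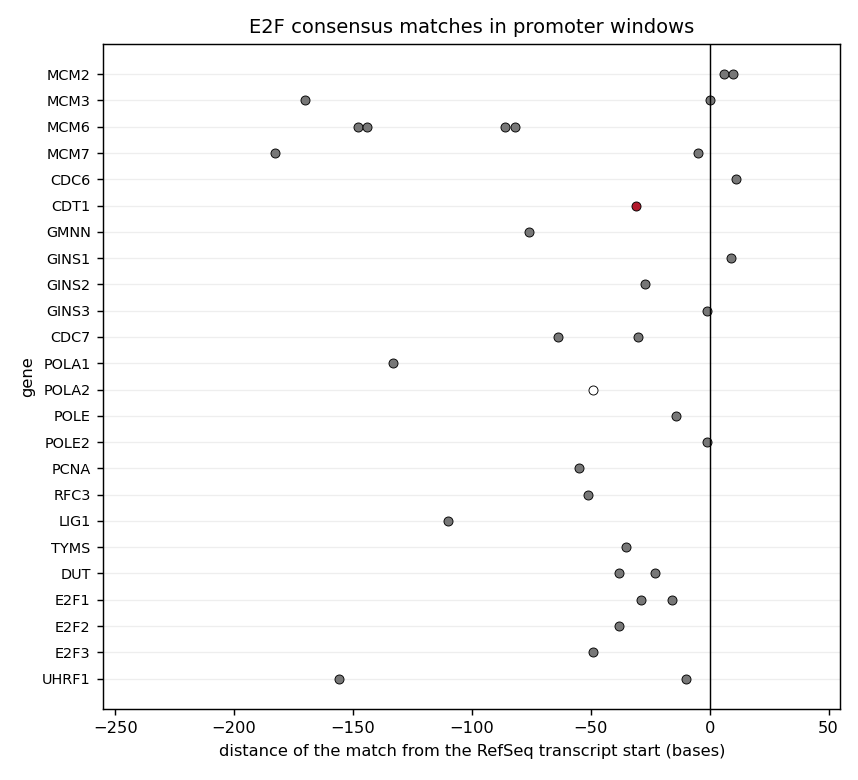
Position of each E2F consensus match (x axis, bases from the RefSeq transcript start, with 0 at the start) in the promoter windows of the 24 genes that hold one (y axis). Grey points are genes that did not pass the test, the red point is CDT1, which was higher in siUCA1, and the white point is POLA2, which was not measured. Most points sit close to the start, and 18 genes have their nearest match within 50 bases of it.

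For the 5 lower genes and E2F7, the CCAAT match nearest the start is shown in 30 bases, read 5' to 3' on the strand of the gene. Capitals mark the match, and ATTGG is CCAAT on the opposite strand. The stretches lie at chr10:13161441-13161470 on the plus strand (MCM10), chr1:52404429-52404458 on the minus strand (ORC1), chr17:78187081-78187110 on the minus strand (TK1), chr2:10122661-10122690 on the plus strand (RRM2), chr19:4402590-4402619 on the plus strand (CHAF1A) and chr12:77065606-77065635 on the minus strand (E2F7).
MCM10: caatgacgtaaaCCAATccgattgctctgt
ORC1: ggggccacgccgATTGGcgcgaagttttct
TK1: ggccggctcgtgATTGGccagcacgccgtg
RRM2: ggggcaccaaagCCAATgggaagggccggg
CHAF1A: cgggctcgcccaATTGGcgcgcggactgcg
E2F7: cggccgccgctgATTGGtggattctcaaat
These matches lay between 21 and 103 bases before the start.

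The E2F consensus is shown in the same way, with capitals on the match, for CDT1 and for 5 genes that hold it and did not pass the test. They lie at chr16:88803743-88803772 on the plus strand (CDT1), chr2:135876511-135876540 on the minus strand (MCM6), chr16:58392455-58392484 on the plus strand (GINS3), chr14:49688201-49688230 on the minus strand (POLE2), chr20:5126663-5126692 on the minus strand (PCNA) and chr20:33686387-33686416 on the minus strand (E2F1).
CDT1: ccagggcgcccGCGGGAAAtttggcgggaa
MCM6: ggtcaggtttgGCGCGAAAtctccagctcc
GINS3: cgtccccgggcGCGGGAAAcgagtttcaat
POLE2: ctgcggcggtgGCGCCAAAtcgcaaatatg
PCNA: cagcgtcagggGCGGGAAAaggcgtgcgtt
E2F1: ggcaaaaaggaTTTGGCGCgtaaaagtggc
In CDT1, GCGGGAAA is the opposite strand of TTTCCCGC.

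UCA1 downregulation changed a small share of the replication genes past the threshold. MCM10, ORC1, TK1, RRM2 and CHAF1A were lower in siUCA1, and E2F7, PRIM2 and CDT1 were higher (limma, adjusted p under 0.05 over all genes). The 5 lower genes were 10.4% of the 48 tested, beside 5.85% of all genes tested. The 3 higher genes stood beside 5.72%, and the 8 together (16.7%) beside 11.6% in either direction. Before adjustment, 13 of the 48 were lower at p under 0.05 by limma, against 2018 of all 15456 genes (13.1%). Likewise, 3 of the 48 were higher, against 2245 of all genes (14.5%). The difference was negative for 34 of the 48 genes (against 45.9% of all genes), and their median was -0.09 on the log2 scale against 0.03 over all genes. This median was below that of all genes in each of 25 settings, by 0.064 to 0.224. Counted by array, 8 genes had all siUCA1 values below all sictrl values (16.7%, against 9.67% of all genes). These were MCM10, TK1, RRM2, CHAF1A, CHAF1B, UHRF1, POLD1 and POLE2. In 4 genes, namely CDT1, PRIM2, E2F7 and MCM5, all siUCA1 values lay above (11.2% of all genes). With the shared replicate names as a block, CHAF1A, CDT1 and PRIM2 did not pass. This left 4 lower genes (against 5.45% of all genes) and 1 higher (against 5.73%). With median scaling or normexp background correction, MCM10 alone was lower by limma (2.08%, against 2.72% and 1.49% of all genes) and 0 genes were higher (against 0.738% and 0.97%). None of the 48 passed once a surface trend was removed, or when no detection filter was used. This trend was the median deviation in each tile of 24 by 20 spots on each array, so its removal also centers each array. Over 25 settings, each of the 8 kept its direction, and the number in which it passed was 23 for MCM10, 21 for TK1 and E2F7, 13 for RRM2 and PRIM2, 12 for ORC1 and 11 for CHAF1A and CDT1. Of all genes that passed, 50.6% were lower, 78.7% with median scaling and 79% with the surface trend removed. Median scaling moved the median of all genes by -0.0957 and removing the surface trend moved it by -0.103. The 95% interval of the difference lay within 2-fold in either direction for 46 of the 48 genes, with MCM10 and GINS3 as the exceptions. All 48 were well above background on every array.

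**Figure D2:**
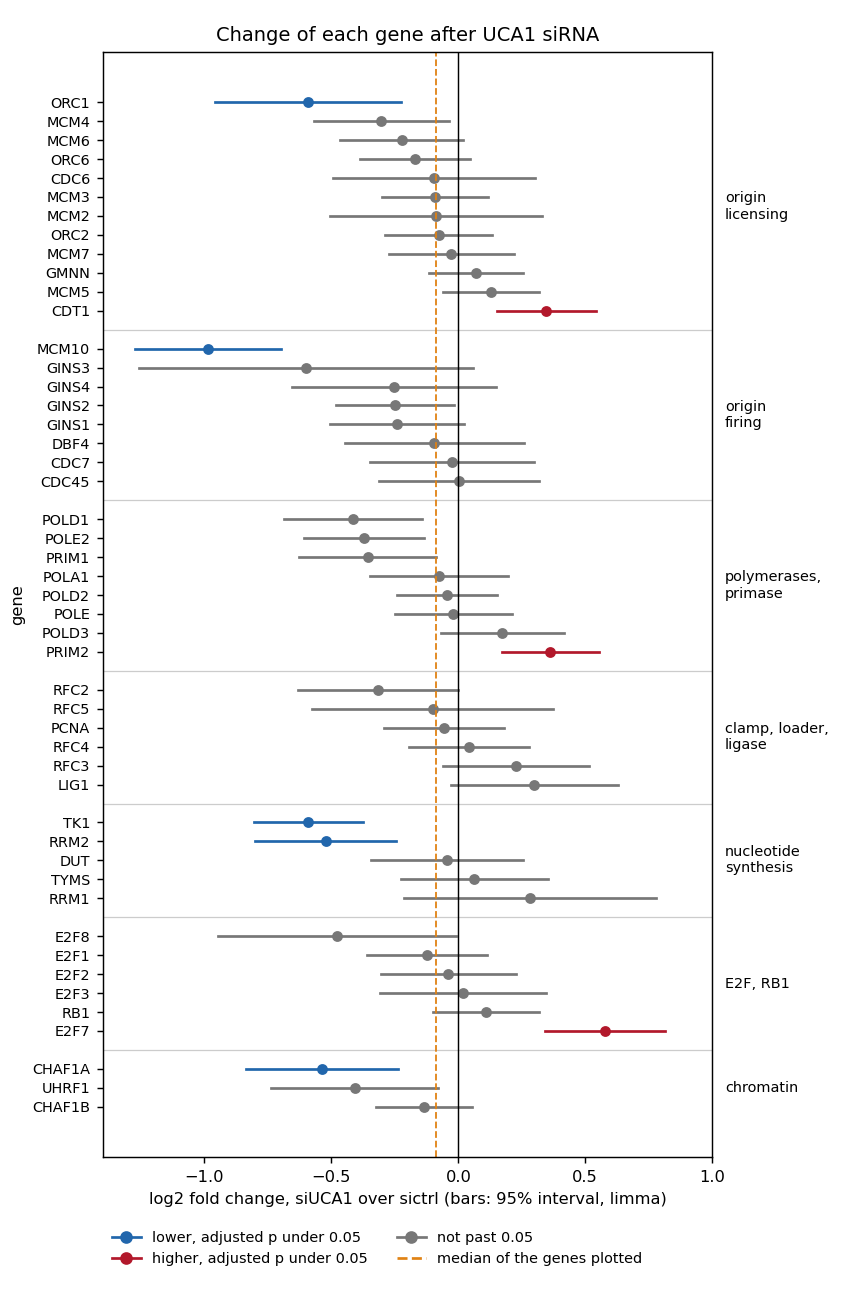
Log2 fold change of siUCA1 over sictrl (x axis) for the 48 genes tested (y axis), grouped by role, with 95% intervals from limma as bars and n = 4 arrays per condition. Blue marks the 5 lower and red the 3 higher genes at an adjusted p under 0.05, and the dashed line is the median of the 48 genes, -0.09.

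In origin licensing, 1 of 12 genes was lower and 1 higher, with a median difference of -0.09. ORC1, the largest subunit of the origin recognition complex, had log2 levels of 1.45, 1.39, 1.33 and 1.06 in sictrl (A1, M2, A2, A3) and 1.16, 0.60, 0.57 and 0.53 in siUCA1. The groups overlapped, because siUCA1 A1 lay above sictrl A3. The difference was -0.59 (SE 0.16, limma, adjusted p = 0.047), and without these 2 arrays it was -0.82 (SE 0.08, limma, adjusted p = 0.0018). CDT1, which brings the MCM ring to the origin, moved the other way. Its levels were 5.85, 5.79, 5.85 and 5.73 in sictrl and 6.24, 6.05, 6.18 and 6.14 in siUCA1, so every siUCA1 array was above every sictrl array. The rise was 0.35 (SE 0.09, limma, adjusted p = 0.036). GMNN, which encodes the CDT1 inhibitor geminin, differed by 0.07, with a 95% interval of -0.11 to 0.25. Of the MCM ring, MCM2, MCM3, MCM4, MCM5, MCM6 and MCM7 differed by -0.30 (MCM4) to 0.13 (MCM5), and none of the 6 passed. Without both arrays, MCM4 and MCM6 passed as lower, at -0.41 and -0.33, and MCM2 went from -0.09 to -0.34 (limma, adjusted p = 0.079). With all 8 arrays, MCM7 had the smallest difference of the licensing genes, -0.03 (95% interval -0.27 to 0.22). Its levels were 8.81, 8.61, 8.70 and 8.52 in sictrl and 8.82, 8.59, 8.65 and 8.48 in siUCA1. Without sictrl A3 and siUCA1 A1, MCM7 was at -0.14 and ORC2 had the smallest difference, -0.04. The remaining licensing genes, ORC2, ORC6 and CDC6, differed by -0.08, -0.17 and -0.09.

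MCM10 had the largest change of the 48 genes with all 8 arrays, while GINS3 had the largest without sictrl A3 and siUCA1 A1. The MCM10 protein binds the loaded helicase and is needed to activate it. Its levels were 1.14, 1.03, 0.94 and 0.69 in sictrl (0.95 ± 0.19, SD, n = 4) and -0.27, 0.04, 0.03 and 0.05 in siUCA1 (-0.04 ± 0.16, SD, n = 4). No array of one condition reached the range of the other. MCM10 was 1.98-fold lower, a difference of -0.99 (SE 0.13, limma, adjusted p = 0.0036), and it was at -0.995 without those 2 arrays. The other firing genes did not pass. All 4 subunits of GINS, the helicase cofactor, had negative differences, namely -0.24 (GINS1), -0.25 (GINS2), -0.60 (GINS3) and -0.25 (GINS4). The GINS3 value shows how uneven the arrays were. It was 4.27, 3.98, 4.11 and 3.21 in sictrl and 4.03, 3.05, 3.05 and 3.04 in siUCA1, so that sictrl A3 sat near the siUCA1 values and siUCA1 A1 among the sictrl values. With those 2 arrays left out, GINS3 was lower by 1.07 (SE 0.09, limma, adjusted p = 0.0018). GINS4 went the other way, with 2.73 on siUCA1 A1 against 3.47 to 3.51 on the other siUCA1 arrays, and its difference without both arrays was -0.06. CDC45, the other helicase cofactor, had the smallest difference of the firing genes with all 8 arrays, 0.0025 (95% interval -0.31 to 0.32). This sign turned under several settings. The kinase subunits CDC7 and DBF4 differed by -0.03 and -0.09.

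**Figure D3:**
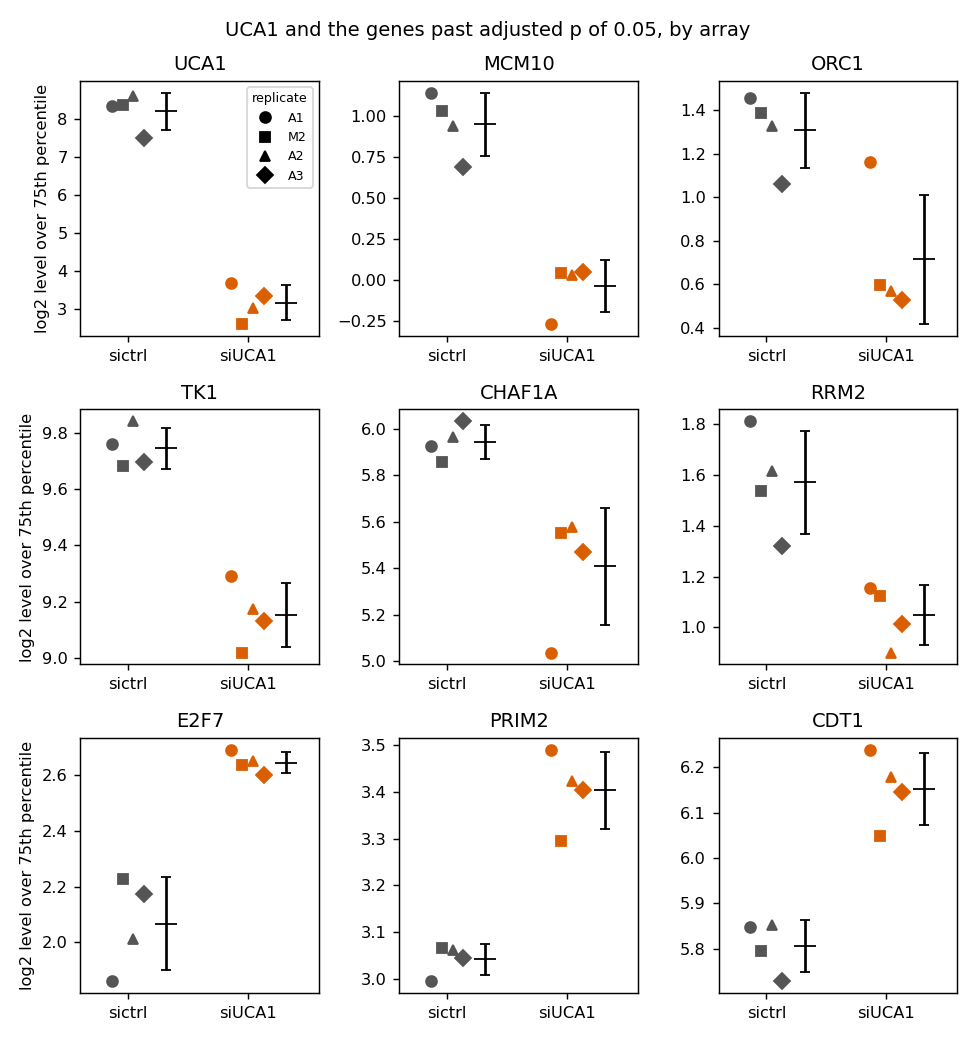
Log2 level over the 75th percentile of the array (y axis, a different range in each panel) for UCA1, the 5 lower and the 3 higher genes, with sictrl in grey and siUCA1 in orange and the replicate name as the marker shape. The black bar is the mean and SD of 4 arrays. Of UCA1 and the 5 lower genes, ORC1 is the only one with a siUCA1 array (A1) above a sictrl array (A3), and in the 3 higher genes all siUCA1 arrays lie above all sictrl arrays.

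Among the polymerases and primase, 1 of the 8 genes tested was higher and 0 were lower at the adjusted threshold by limma, although 3 were lower before adjustment. PRIM2, the large primase subunit, had levels of 2.99, 3.07, 3.06 and 3.04 in sictrl and 3.49, 3.29, 3.42 and 3.40 in siUCA1. The groups were apart, and the rise was 0.36 (SE 0.08, limma, adjusted p = 0.029). Its other probes did not pass, nor did PRIM2 with the mean of its probes. PRIM1, the catalytic primase subunit, differed in the opposite direction, by -0.36 (SE 0.12, limma, adjusted p = 0.088). POLD1, the catalytic subunit of polymerase delta, had levels of 4.41, 4.34, 4.39 and 4.71 in sictrl and 4.25, 3.90, 4.01 and 4.03 in siUCA1. All siUCA1 values were below all sictrl values, and the difference of -0.41 (SE 0.12) missed the threshold (limma, adjusted p = 0.059). POLE2, a subunit of polymerase epsilon, was close to it in the same way, with levels of 1.13, 0.97, 1.03 and 0.80 in sictrl and 0.73, 0.65, 0.54 and 0.52 in siUCA1. Its difference was -0.37 (SE 0.10, limma, adjusted p = 0.052). POLE, the catalytic subunit of the same enzyme, had the smallest difference with all 8 arrays, -0.02 (95% interval -0.25 to 0.21). POLA1, POLD2 and POLD3 differed by -0.08, -0.05 and 0.17. Without sictrl A3 and siUCA1 A1, 3 of the 8 were lower (against 11.4% of all genes) and 1, PRIM2, was higher (against 12.9%). The lower genes were PRIM1, POLD1 and POLE2, at -0.50, -0.40 and -0.47 (limma, adjusted p = 0.0067, 0.014 and 0.011).

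None of the 6 genes of the clamp, clamp loader and ligase passed the test (limma), and 1 was lower before adjustment. This was RFC2, a clamp loader subunit, with levels of 3.93, 3.74, 3.79 and 3.42 in sictrl and 3.66, 3.38, 3.31 and 3.26 in siUCA1. Its difference was -0.32 (SE 0.14, limma, adjusted p = 0.18). PCNA, the sliding clamp, had levels of 5.82, 5.72, 5.82 and 5.72 in sictrl and 5.94, 5.56, 5.68 and 5.68 in siUCA1. Its groups overlapped, and the difference was -0.06 (95% interval -0.29 to 0.18). RFC4 differed by 0.04, RFC3 by 0.23, RFC5 by -0.10 and LIG1, the ligase that joins Okazaki fragments, by 0.30. Without sictrl A3 and siUCA1 A1, RFC2 was at -0.50 (limma, adjusted p = 0.010) and RFC5 at -0.27 (limma, adjusted p = 0.048), both lower. PCNA was then at -0.15 and LIG1 at 0.15, and neither passed. RFC5 passed in this setting alone and was at 0.38 once the surface trend was removed.

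In deoxynucleotide synthesis, 2 of 5 genes were lower and the other three had intervals that included 0. TK1, the cytosolic thymidine kinase that salvages thymidine in S phase, had levels of 9.76, 9.68, 9.84 and 9.69 in sictrl and 9.29, 9.02, 9.18 and 9.13 in siUCA1. The groups were 0.391 apart at their nearest values, against an SD of 0.073 in sictrl and 0.113 in siUCA1. TK1 fell by 0.59 (SE 0.09, limma, adjusted p = 0.0073), or 1.51-fold. RRM2, the regulated small subunit of ribonucleotide reductase, had levels of 1.81, 1.54, 1.62 and 1.32 in sictrl and 1.16, 1.12, 0.90 and 1.01 in siUCA1. It fell by 0.52 (SE 0.12, limma, adjusted p = 0.030). RRM1, the large subunit of the same enzyme, had levels of 5.43, 5.31, 5.38 and 4.59 in sictrl and 5.89, 5.20, 5.40 and 5.34 in siUCA1. Its difference of 0.28 (95% interval -0.21 to 0.78) had sictrl A3 as the lowest and siUCA1 A1 as the highest array, and without both it was -0.06. TYMS, which makes thymidylate from deoxyuridylate, differed by 0.06 (95% interval -0.23 to 0.35). Without sictrl A3 and siUCA1 A1, TYMS was at -0.08. DUT, the dUTPase, had the smallest difference, -0.05 (95% interval -0.35 to 0.26).

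Of the E2F genes and RB1, 1 of 6 passed. E2F7, an atypical E2F that represses replication genes, had levels of 1.86, 2.23, 2.01 and 2.17 in sictrl and 2.69, 2.64, 2.65 and 2.60 in siUCA1. All siUCA1 arrays were above all sictrl arrays and close to each other. The rise was 0.58 (SE 0.10, limma, adjusted p = 0.011). E2F8, the other atypical repressor, had levels of 0.64, 0.51, 0.48 and 0.29 in sictrl and 0.62, -0.42, -0.18 and -0.02 in siUCA1. Its groups overlapped through siUCA1 A1, and the difference of -0.48 did not pass (SE 0.21, limma, adjusted p = 0.17). Without sictrl A3 and siUCA1 A1 it was lower by 0.75 (SE 0.12, limma, adjusted p = 0.0084). The activators E2F1, E2F2 and E2F3 differed by -0.12, -0.04 and 0.02, and RB1 by 0.11.

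The 3 genes that act on chromatin behind the fork all had siUCA1 values below their sictrl values on every array, and 1 passed. CHAF1A, the large subunit of the histone chaperone CAF-1, had levels of 5.92, 5.86, 5.96 and 6.03 in sictrl and 5.04, 5.55, 5.58 and 5.47 in siUCA1. It fell by 0.54 (SE 0.13, limma, adjusted p = 0.034), and by 0.38 without the 2 arrays that stood apart. UHRF1, which recruits maintenance methylation to hemimethylated DNA, differed by -0.41 (SE 0.14, limma, adjusted p = 0.11). Without those 2 arrays, UHRF1 passed as lower, at -0.34 (limma, adjusted p = 0.037). CHAF1B, the middle subunit of CAF-1, differed by -0.13 (SE 0.08, limma, adjusted p = 0.34).

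**Figure D4:**
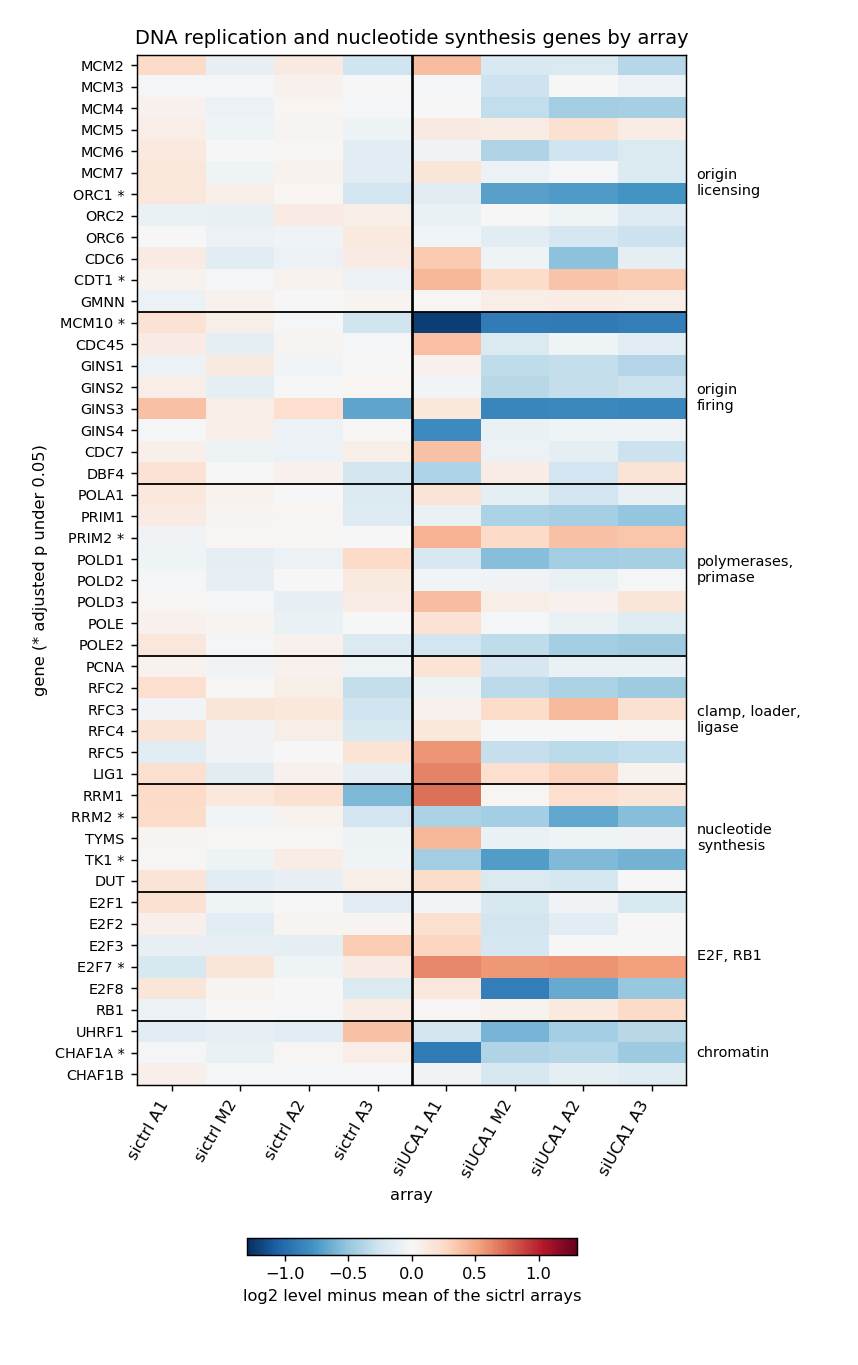
Log2 level of each of the 48 genes (y axis, grouped by role) on each of the 8 arrays (x axis), minus the mean of the 4 sictrl arrays, in blue where below and red where above it. Stars mark the 8 genes at an adjusted p under 0.05. The siUCA1 A1 array is redder than the other siUCA1 arrays for most genes, and was the highest of the 4 in 37 of 48.

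How many of the replication genes passed depended on the arrays that stood apart. The siUCA1 A1 array was the highest of its 4 for 37 of the 48 genes (77.1%), while over all genes tested this share was 38.6%. It was not particular to replication genes, since 20 of 23 mitosis genes (87.0%) had their highest siUCA1 value on this array. The median of the 48 genes was 3.98 on that array, against 3.58, 3.67 and 3.70 on the other siUCA1 arrays and 3.85 to 3.99 in sictrl. Without sictrl A3 and siUCA1 A1, 17 of the 48 genes were lower (35.4%, against 11.4% of all genes) and 3 higher (against 12.9%), and the median was -0.14. All 5 lower and all 3 higher genes of the 8 arrays were among them. The 12 further lower genes were MCM4 and MCM6 of the ring, GINS1, GINS2 and GINS3, PRIM1, POLD1 and POLE2, the loader subunits RFC2 and RFC5, E2F8 and UHRF1. Without siUCA1 A1 alone, 11 were lower (22.9%, against 8.09%), and without sictrl A3 alone, 5 (10.4%, against 5.87%). Conversely, leaving out any of the other six arrays left MCM10 and TK1 as the lower genes (4.17%, against 2.54% to 3.92% of all genes). Once the trend over the surface of each array was removed, 0 of the 48 genes passed (limma, 7 lower and 0 higher before adjustment), against 1.58% of all genes lower and 0.421% higher. What set these 2 arrays apart was not tested.

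**Figure D5:**
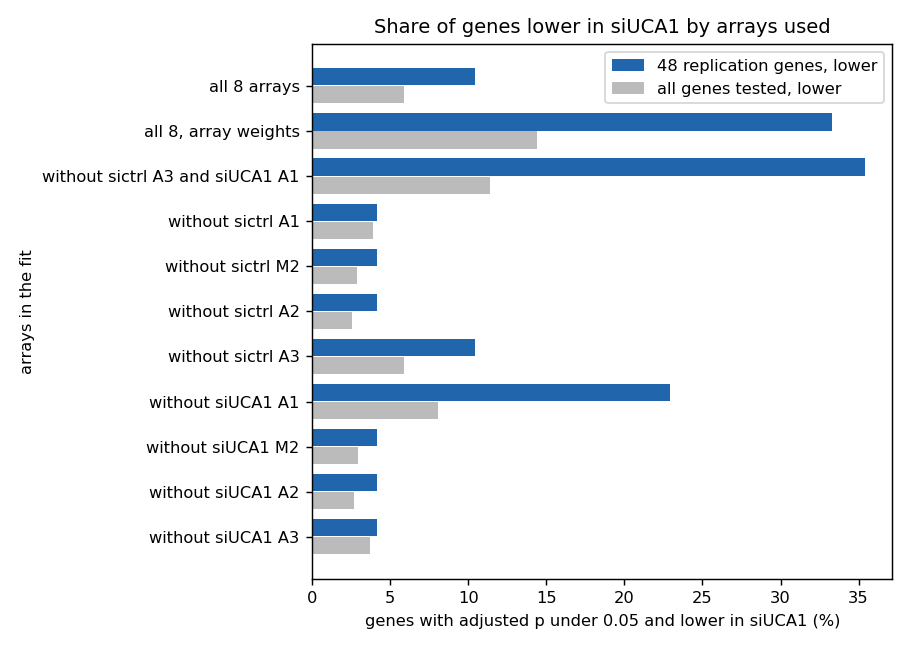
Percent of genes that were lower in siUCA1 at an adjusted p under 0.05 (x axis, from 0) for the 48 replication genes (blue) and for all genes tested (grey), by the arrays used in the fit (y axis). The blue share is 10.4% with all 8 arrays, 22.9% without siUCA1 A1 and 35.4% without sictrl A3 and siUCA1 A1.

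Of the 48 genes, 11 had more than 1 probe above background, and in some the probes differed. For PRIM2, the other probes differed by 0.03 and 0.08 and did not pass. With the mean of the probes of each gene, neither PRIM2 nor CHAF1A passed. The RefSeq table also lists a pseudogene copy, PRIM2BP, and which copy each probe reads was not tested. For CHAF1A, the dimmer probe differed by -0.28 (limma, adjusted p = 0.55). Probes of ORC2, MCM5, POLE, RFC3, DUT and E2F3 differed in sign, and none of these probes passed. The dimmer ORC2 probe, at 0.34 (limma, adjusted p = 0.067), came nearest.

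Of 70 further genes of replication, nucleotide supply and the E2F system that were tested, 6 were lower (against 5.85% of all genes) and 2 higher (against 5.72%), with a median of -0.03. The falls of RNASEH2C and RPA1 were larger than that of MCM10. RNASEH2C, a subunit of the RNase that removes ribonucleotides from DNA, differed by -1.86 (SE 0.22, limma, adjusted p = 0.0025). RPA1, the large subunit of the protein that coats single-stranded DNA at the fork, had levels of 4.32, 4.41, 4.48 and 4.59 in sictrl and 3.60, 2.84, 2.79 and 3.07 in siUCA1, and it fell by 1.37 (SE 0.18, limma, adjusted p = 0.0036). SHMT2, the mitochondrial enzyme that feeds the folate cycle, fell by 0.83 (limma, adjusted p = 0.012). Smaller falls were found for CHTF18, RECQL4 and ORC5, and smaller rises for ORC4 and E2F5. Without sictrl A3 and siUCA1 A1, 14 of the 70 were lower (against 11.4% of all genes) and 7 higher (against 12.9%). DCK, TK2 and ASF1A were not well above background. Of 13 tested cyclins, kinases and inhibitors of G1 and S phase, CDK4 and CCND3 were lower and CDKN1A and CCNE2 higher. Together these were 30.8%, against 11.6% of all genes in either direction. The probes of CCNE2 disagreed. The brighter one, used here, rose by 0.35, and the dimmer one differed by -0.90 with all siUCA1 arrays below all sictrl arrays (limma, adjusted p = 0.078). CDKN1A, the cyclin-dependent kinase inhibitor p21, rose by 1.26 (SE 0.14, limma, adjusted p = 0.0024), with levels of 1.22, 1.22, 1.27 and 1.52 in sictrl and 2.90, 2.49, 2.28 and 2.62 in siUCA1. CDK4, the kinase that phosphorylates RB1 in G1, fell by 1.13 (SE 0.14, limma, adjusted p = 0.0032). Of 23 mitosis genes tested, 0 passed by limma (against 11.6% of all genes) and 1 was lower before adjustment, with a median of -0.06. Without sictrl A3 and siUCA1 A1, 5 of the 23 were lower (against 11.4% of all genes) and 0 higher (against 12.9%). Of the 23, 21 were negative, with a median of -0.17, beside -0.14 for the 48 replication genes.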

How the data were processed

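Expression in OAW42-R cells was read from 8 one-color 8x60k arrays (Agilent), with groups of 4 taken from the sample labels. The authors deposited the intensity of each spot from Agilent Feature Extraction 10.7.3.1, which had subtracted the background and had not normalized between arrays. The deposited series table held the same intensity values. From these, log2 values minus the 75th percentile of each array's non-control spots were computed, outlier spots were left out and spots of a probe averaged. A probe was kept when well above background on all 4 arrays of a condition, and the brightest such probe stood for its gene. Accessions were named through RefSeq (GRCh38.p14), which named 31104 of 58201 probes, and array names were kept otherwise. limma 3.58.1 in R 4.3.3 was fitted to all genes with Benjamini-Hochberg adjustment and a threshold of 0.05, and the procedure was tested on simulated data. Figures were drawn with matplotlib 3.10.9 in Python 3.11.15. The number of arrays limits the precision.

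Members, lists and tests were chosen with earlier results of these data known. The text gives with their values UCA1, the genes that passed, and the largest and smallest difference of each role group. Genes given as examples beyond these were chosen after their values were seen. Promoter windows came from RefSeq and were searched for exact letters. Alternatives in normalization, background, detection, probes, blocks, weights and arrays were also fitted, and a block for slide column was chosen after seeing the data.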

Additional observations from a re-analysis of the deposited data

Results flagged for a closer look

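In each condition, the highest or lowest of the 4 arrays was compared with the others by Dixon's criterion for UCA1, for the 48 genes and for their median. This gave 100 sets of 4 arrays, and 14 stood out, where chance alone gives about 1 in 20. The values are log2 levels.

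The siUCA1 A1 array was the one that stood out in 8 of the genes. It was high for ORC1 (1.16, others 0.53 to 0.60), GINS1 (4.59, others 4.16 to 4.23), GINS3 (4.03, others 3.04 to 3.05), RFC5 (5.33, others 4.40 to 4.45) and TYMS (7.45, others 6.94 to 6.98). It was low for MCM10 (-0.271, others 0.03 to 0.05), GINS4 (2.73, others 3.47 to 3.51) and GMNN (5.37, others 5.44 to 5.45).

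The sictrl A3 array stood out as low for RRM1 (4.59, others 5.31 to 5.43) and as high for E2F3 (4.09, others 3.65 to 3.66) and UHRF1 (3.62, others 3.09 to 3.13). On the remaining arrays, MCM5 was high on siUCA1 A2 (5.09, others 4.98 to 5.00), E2F2 low on sictrl M2 (5.11, others 5.29 to 5.32) and CHAF1B high on sictrl A1 (4.05, others 3.96 to 3.97).

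Both siUCA1 A1 and sictrl A3 lie in column 2 of the slide, and their part in these values was not tested.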

How the results depend on the processing

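With all 8 arrays, 5 of the genes were lower, 3 were higher, and 8 of their probes passed. Median scaling and normexp each left 1 lower gene (MCM10), 0 higher genes and 1 probe. Removing the surface trend left 0, 0 and 0 by limma, with 7 lower and 0 higher at an unadjusted p under 0.05, and testing without a detection filter also left 0, 0 and 0, with 7 lower and 3 higher before adjustment. Array weights gave 16 lower genes and 22 probes, and leaving out sictrl A3 and siUCA1 A1 together gave 17 and 20. With slide row as a block there were 3 lower genes and 4 probes, and with slide column as a block, chosen after seeing the data, 3 lower genes, 1 higher gene and 3 probes. Leaving out 1 array at a time gave 2 to 11 lower genes, 1 to 3 higher genes and 3 to 14 probes. The share of all genes that were lower moved too, from 5.85% to 2.72% (median scaling), 1.49% (normexp), 1.58% (surface trend removed), 0.0963% (no filter), 14.4% (array weights), 11.4% (without both arrays), 4.37% (slide row), 4.44% (slide column) and 2.54% to 8.09% (without 1 array). The cause of these differences was not tested. The median difference of the genes stayed negative in all 25 settings, from -0.19 to -0.0432.

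Replicates shared a name between conditions. The deviations of arrays of the same name from their group means correlated at 0.038 (A1), 0.278 (M2), 0.216 (A2) and 0.127 (A3), not all above 0.1, and sictrl A1 correlated best with siUCA1 M2 (0.109), so the names were not taken to pair the arrays. With the replicate block, 4 genes were lower, 1 was higher (E2F7) and 5 probes passed. The genes lost were CHAF1A, CDT1 and PRIM2 (limma, adjusted p = 0.0524, 0.0534 and 0.0567).

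The difference changed sign in at least 1 setting for 19 of the 48 genes, and RFC5 was the 1 of these that passed in any. It was at 0.381 without the surface trend. Of the genes with the smallest difference of their role group, CDC45 was at -0.027 with quantile normalization, -0.0149 with the percentile over detected probes, -0.0932 with median scaling, -0.0575 without the surface trend, -0.076 with array weights and -0.131 without both arrays. RFC4 was at -0.0535 with median scaling, -0.00514 with normexp, -0.148 without the surface trend, -0.0231 with array weights and -0.0586 without both arrays. E2F3 was at -0.0781 with median scaling, -0.00515 with normexp, -0.0612 without the surface trend and -0.0724 with the mean of probes, which put POLE at 0.211 and DUT at 0.0568. Without 1 array, the ranges were -0.126 to 0.0657 for CDC45, -0.0257 to 0.0998 for RFC4, -0.0684 to 0.127 for E2F3, -0.0882 to 0.0284 for POLE, -0.141 to 0.0163 for DUT and -0.0896 to 0.0237 for MCM7.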
